A study of Mus musculus with 11 samples.

Results

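The unfolded protein and heat shock genes are a set of 41 genes, taken by symbol from the deposited count table of 16934 genes, that encode the sensors, transcription factors, enzymes and chaperones with which cells answer misfolded protein. They were followed across 11 libraries of 3′ mRNA sequencing from primary microglia, the immune cells that reside in the brain, prepared from newborn C57BL/6 mice and grown in medium with serum. In 4 libraries the microglia had spent 6 h with primary cortical neurons at 14 days in vitro that carried α-synuclein fibrils, given at 0.1 µM with an Atto488 label during the 16 h before and then washed off. In 3 libraries they had spent 6 h with untreated neurons of the same kind, and in 4 libraries microglia were cultured alone. The labels carry no genetic modification and leave unstated by what means the microglia were parted from the neurons before RNA extraction. They also leave unstated whether replicates are separate cultures or animals, so the p-values cover the spread between these samples only, and that spread may be technical.

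Protein folding load is sensed in separate compartments. In the endoplasmic reticulum the sensors Atf6, Ire1 and Perk respond to unfolded protein, and their output includes cleaved Atf6, spliced Xbp1 and, through the integrated stress response, increased translation of Atf4, which induces Ddit3 and genes of amino acid supply. In the cytosol heat shock factor Hsf1 is released from chaperones and induces heat shock proteins. Aggregated α-synuclein, the protein deposited in Parkinson's disease, is a known client of cytosolic chaperones such as Hspa8. Atf6 cleavage, Xbp1 splicing and Atf4 translation act after transcription and are not read by 3′ mRNA counts, which measure only the amount of each transcript.

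Total counts lay between 8253070 and 14844071 with fibril-loaded neurons, between 10925771 and 16802451 with untreated neurons and between 10700940 and 14541179 in microglia alone. All 20 pan-microglia and macrophage markers had counts, and their summed level averaged 23810 CPM (counts relative to library size) with fibril-loaded neurons, 25286 CPM with untreated neurons and 20567 CPM in microglia alone. The neuron marker list had counts for 17 of 18 genes, with Snap25 at 0. It summed to between 818 and 1226 CPM with fibril-loaded neurons, between 667 and 910 CPM with untreated neurons and between 1289 and 1550 CPM in microglia alone, and Basp1 made up 92.6% of it. Summed astrocyte markers ran from 20.7 to 134 CPM, from 25.2 to 104 CPM and from 26.3 to 65.8 CPM in these groups, and oligodendrocyte markers from 163 to 356 CPM, from 273 to 329 CPM and from 184 to 305 CPM. Endothelial markers (Tek at 0) summed to at most 113 CPM and fibroblast and mural markers (Dcn, Pdgfrb and Rgs5 at 0) to at most 23.4 CPM in any library. The ribosomal RNA precursor Rn45s took 12.8 ± 2.85% of counts with fibril-loaded neurons (SD, n = 4), 12.6 ± 2.69% with untreated neurons (n = 3) and 19.4 ± 4.45% in microglia alone (n = 4). The neuron marker sums of both co-cultures lay below those of microglia alone, but single markers went both ways. Nrgn averaged 15.1 CPM with fibril-loaded neurons, 29.9 CPM with untreated neurons and 0 CPM in microglia alone, and Camk2a 8.27, 10.6 and 0.471 CPM. Dcx averaged 2.59, 0.0403 and 48.6 CPM in the same groups, and Tubb3 3.06, 0.747 and 18.9 CPM. The sum therefore does not measure how much neuronal RNA was carried over, which was not tested. The microglia marker sums lay above microglia alone with untreated neurons and overlapped it with fibril-loaded neurons, the Rn45s shares overlapped, and the part of these shifts in the results was not tested. In such bulk samples fewer cells of a type and less RNA per cell cannot be told apart.

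All 41 genes had a count in at least 1 library, 28 had one in every library and 40 passed the filter on low counts. Together they made up 5287 ± 336 CPM with fibril-loaded neurons (SD, n = 4), 5119 ± 313 CPM with untreated neurons (n = 3) and 5851 ± 442 CPM in microglia alone (n = 4). The 3 ranges overlapped. Most of this RNA belonged to 18 genes that averaged 50 CPM or more, among them the endoplasmic reticulum chaperones Hspa5, Calr and Canx and the cytosolic chaperones Hsp90ab1 and Hspa8. Another 12 genes lay between 10 and 50 CPM, and 11 lay below 10 CPM, including Hsf1 and the inducible heat shock genes Hspa1a and Hspa1b.

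**Figure D1:**
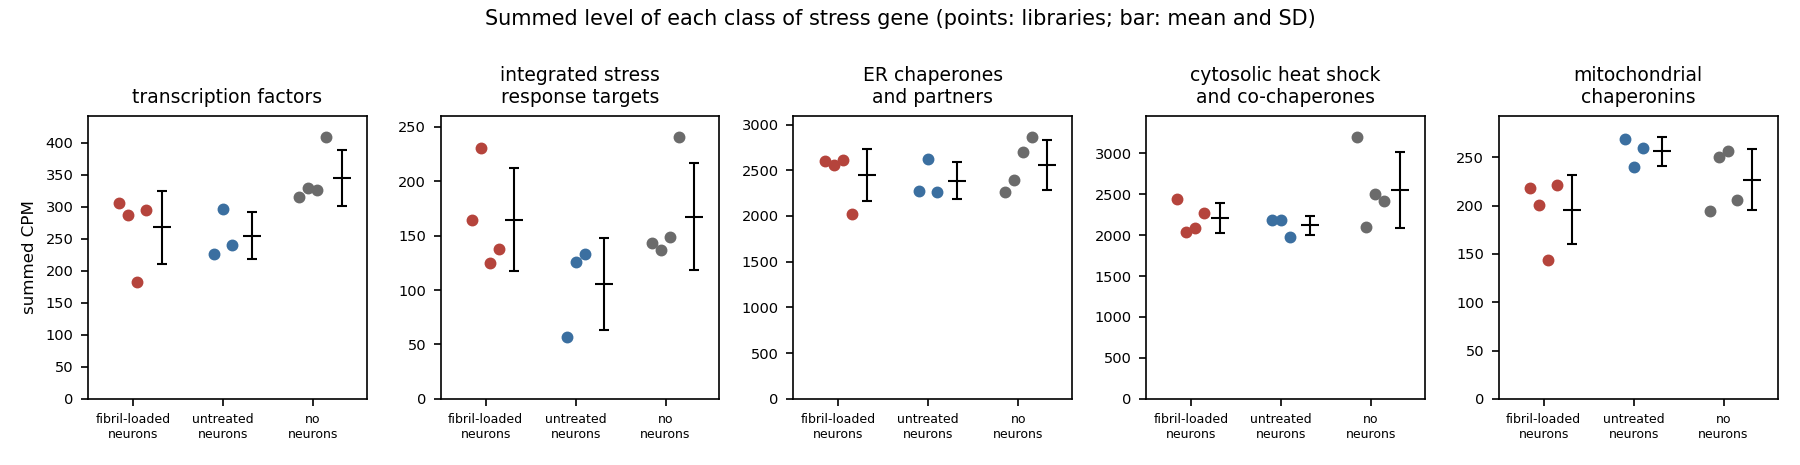
Summed CPM of the genes of each role on a linear axis from 0, with 1 point per library, the group mean as a short line and the SD as an error bar, for fibril-loaded neurons, untreated neurons and microglia alone. Transcription factors lie between 182 and 306 CPM and between 227 and 297 CPM in the co-cultures, below the 315 to 409 CPM of microglia alone, while the other sums overlap between at least one co-culture and microglia alone. Mitochondrial chaperonins lie between 143 and 221 CPM with fibril-loaded neurons and between 240 and 269 CPM with untreated neurons.

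No gene of the set changed at a Benjamini-Hochberg (BH) adjusted p below 0.05 in edgeR's quasi-likelihood test in any comparison, where p is adjusted over all 11276 genes tested. With fibril-loaded neurons against microglia alone, 0 of 40 were called (0.319% of all genes tested), and 5, of which 3 were lower, had an unadjusted p below 0.05, or 12.5% against 8.14% of all genes. DESeq2 called Hspa1b higher and Atf6 lower in that comparison, where it called 2.43% of all genes. With untreated neurons against microglia alone, 0 of 40 were called (0.639% of all genes), and 9, of which 6 were lower, had an unadjusted p below 0.05, or 22.5% against 10.3% of all genes. DESeq2 called 1 higher, Hspa1b, and 3 lower, Chac1, Hsp90aa1 and Sesn2, where it called 4.26% of all genes. The comparison between fibril-loaded and untreated neurons does not separate the fibrils from their label or from the loading. In it 0 of 40 were called (0.00% of all genes), and 3, of which 1 was lower, had an unadjusted p below 0.05, or 7.50% against 3.95% of all genes. DESeq2 called Chac1 higher in that comparison, with 1.68% of all genes called. With both co-cultures averaged against microglia alone, 0 of 40 were called (1.03% of all genes), and 10, of which 7 were lower, had an unadjusted p below 0.05, or 25.0% against 11.3% of all genes. There DESeq2 called Cebpb and Hspa1b higher and Atf6, Hsp90aa1 and Sdf2l1 lower, with 4.94% of all genes called. The 10 genes include Chac1, Sesn2 and Hspa1b, which each had no count in 1 group, so their fitted values rest on zeros. Chac1 had a log2 fold change of -4.37 there, although its means were 4.82 CPM in the co-cultures and 5.94 CPM in microglia alone. At least 1 of these genes also enters each of the unadjusted counts above. Members were chosen with earlier results of these data known, so a share above that of all genes, here or below, is not independent support. The shares are also not matched for level, as 18 of 40 genes of the set averaged at least 50 CPM, against 3118 of all 11276 genes.

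CPM ranges of the groups lay apart for 2 of 40 genes with fibril-loaded neurons against microglia alone (beside 5.62% of all genes), for 7 of 40 with untreated neurons against microglia alone (17.5%, beside 10.3%), for 1 of 40 between the co-cultures (beside 4.68%) and for 1 of 40 with all co-culture libraries against microglia alone (beside 2.67%). The median log2 fold change was -0.00 with fibril-loaded neurons against microglia alone, beside -0.04 over all genes tested. It was 0.04 beside -0.05 with untreated neurons against microglia alone, and 0.06 beside 0.00 between the co-cultures. For the 18 genes of at least 50 CPM the medians were -0.07, -0.16 and 0.08 in the same order. Over all genes of at least 50 CPM they were -0.01, -0.03 and 0.01. Positive values made up 38.9%, 33.3% and 72.2% of the 18 genes, beside 48.9%, 47.5% and 50.7% of all genes of that level. These comparisons share libraries, so their values are not independent of each other. A test for any difference among the 3 groups called 0 of 40 (0.435% of all genes), with 7 at an unadjusted p below 0.05, or 17.5% against 7.25% of all genes, and a smallest edgeR BH-adjusted p of 0.265. DESeq2 called Atf6 in that test, with 2.05% of all genes called.

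**Figure D2:**
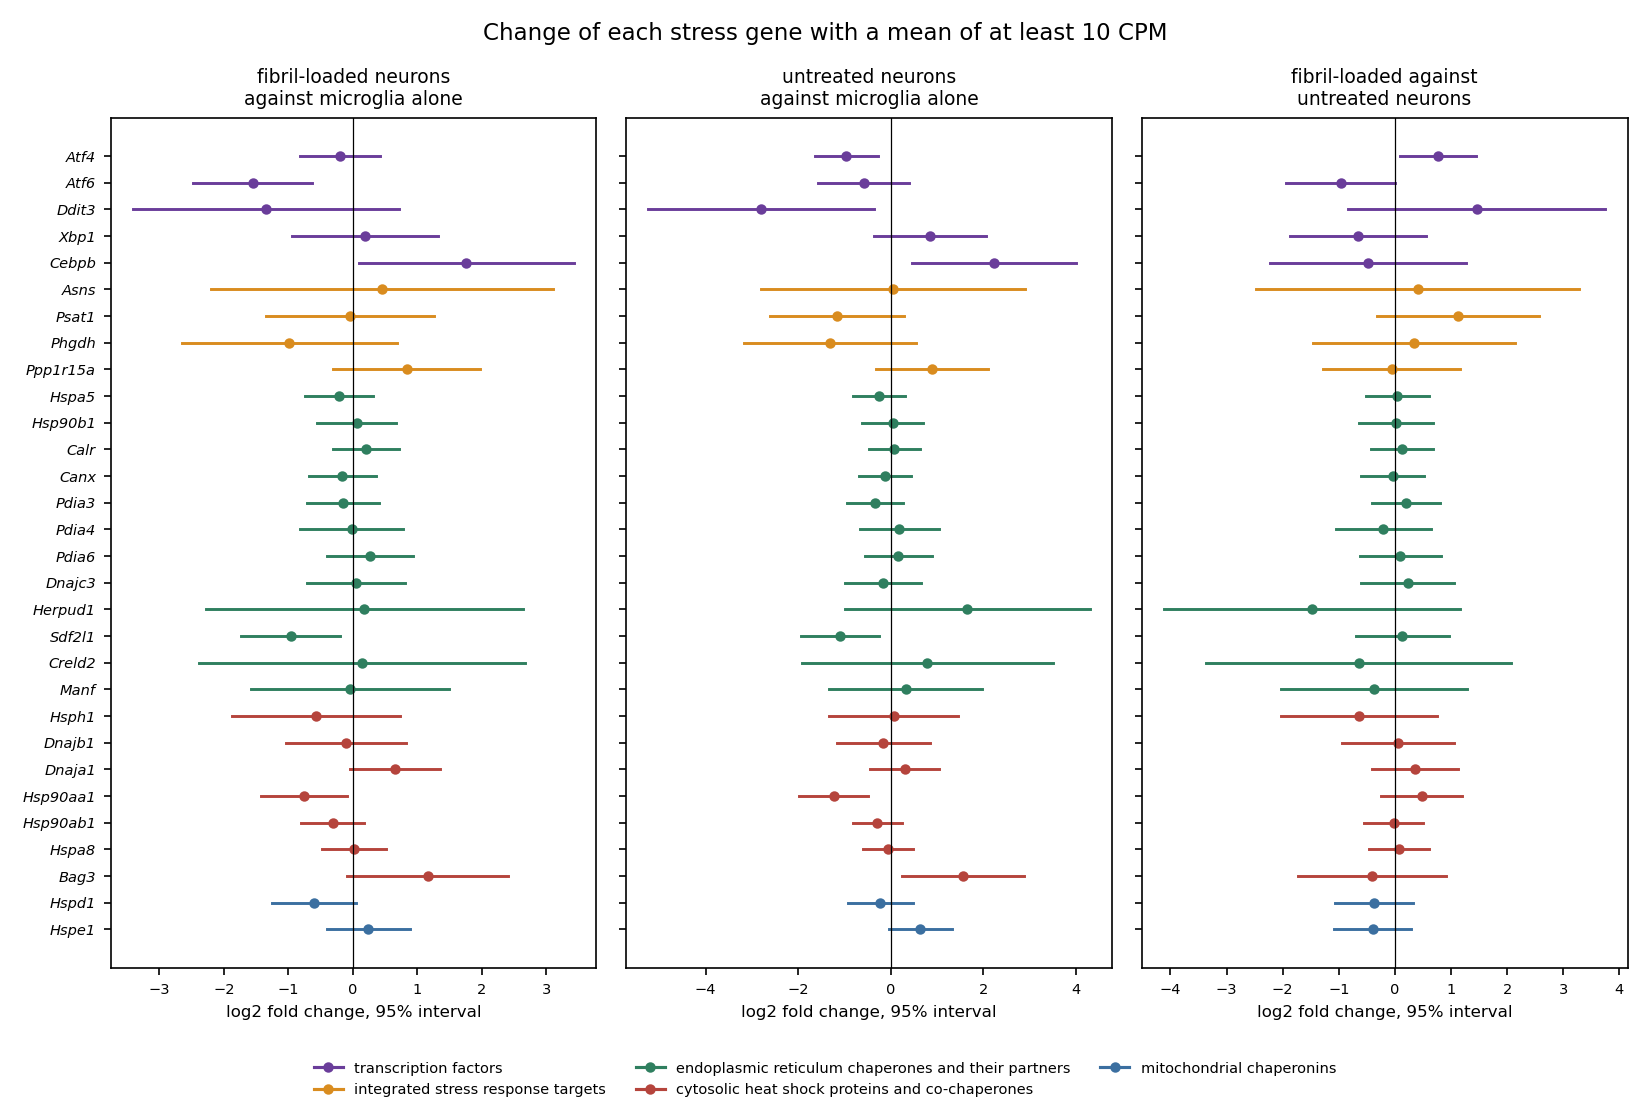
Log2 fold changes (points) with 95% intervals (lines) from edgeR for the 30 genes of the set that averaged 10 CPM or more, in 3 panels with their own horizontal axes, with fibril-loaded neurons over microglia alone, untreated neurons over microglia alone and fibril-loaded over untreated neurons. Hspa5, Hspa8 and Hsp90ab1 sit close to no change with narrow intervals, the farthest of their values being -0.31, while Atf6, Atf4, Sdf2l1 and Hsp90aa1 lie below 0 against microglia alone.

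The transcription factors of these pathways had a lower summed level in every co-culture library than in any library of microglia alone. Atf4 made up 48.0% of this sum, and the sum was not tested. Individual factors lay in opposite directions, with 3 higher and 3 lower in each co-culture against microglia alone, and none of them passed the edgeR test. Atf6, the membrane-bound sensor that is cleaved into a transcription factor, had 15.1, 30.0, 27.8 and 17.1 CPM with fibril-loaded neurons, 51.3, 45.8 and 34.8 CPM with untreated neurons and 63.9, 63.1, 52.9 and 83.2 CPM in microglia alone. No range overlapped another: Atf6 was lowest beside fibril-loaded neurons, intermediate beside untreated neurons and highest in microglia alone. The log2 fold change with fibril-loaded neurons against microglia alone was -1.55 (SE 0.44, 95% interval from -2.47 to -0.63), with an edgeR BH-adjusted p of 0.192 and a DESeq2 adjusted p of 0.00602. Between fibril-loaded and untreated neurons it was -0.97 (SE 0.47, edgeR BH-adjusted p = 1.00). The gene lies on chromosome 1 from 170704457 to 170868585 in the GRCm38.p6 build.

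Atf4, the transcription factor made when the integrated stress response slows general translation, was low beside untreated neurons. Its level was 193, 125, 111 and 167 CPM with fibril-loaded neurons, 62.9, 119 and 80.8 CPM with untreated neurons and 176, 177, 147 and 184 CPM in microglia alone. The untreated-neuron libraries all lay below microglia alone, while the fibril-loaded libraries overlapped both other groups. The log2 fold change was -0.96 (SE 0.33, edgeR BH-adjusted p = 0.253) with untreated neurons against microglia alone, and 0.76 (SE 0.32, edgeR BH-adjusted p = 1.00) between fibril-loaded and untreated neurons. Fibril-loaded neurons against microglia alone gave -0.20 with a 95% interval from -0.81 to 0.42. The gene lies on chromosome 15 from 80255184 to 80257545.

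Ddit3, the pro-apoptotic factor CHOP that Atf4 induces, had 39.9, 36.6, 1.22 and 15.0 CPM with fibril-loaded neurons, 18.02, 0 and 7.17 CPM with untreated neurons and 46.7, 24.4, 42.2 and 123 CPM in microglia alone. The untreated-neuron libraries again lay below microglia alone without overlap, and the fibril-loaded libraries overlapped both. With untreated neurons against microglia alone the log2 fold change was -2.81 (SE 1.17, edgeR BH-adjusted p = 0.407), and with no filter on low counts that adjusted p was 0.0209. An exon of Mars lies on the opposite strand over the 3′ end of Ddit3, and since the labels do not state whether strand was used in counting, their reads cannot be told apart.

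Cebpb, a factor of inflammatory and stress responses, ran in the other direction. It had 29.7, 15.8, 15.3 and 35.0 CPM with fibril-loaded neurons, 36.0, 7.53 and 56.5 CPM with untreated neurons and 7.44, 11.9, 3.90 and 5.02 CPM in microglia alone. All fibril-loaded libraries exceeded microglia alone, and 1 of the 3 untreated-neuron libraries lay inside the range of microglia alone. Log2 fold changes were 1.76 (SE 0.80, edgeR BH-adjusted p = 0.592) with fibril-loaded neurons and 2.24 (SE 0.85, edgeR BH-adjusted p = 0.358) with untreated neurons against microglia alone. For both co-cultures averaged the value was 2.00, with an adjusted p of 0.284 in edgeR and 0.0320 in DESeq2.

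Xbp1, whose spliced transcript encodes the factor downstream of Ire1, had 21.2, 80.3, 27.0 and 49.8 CPM with fibril-loaded neurons, 48.9, 99.7 and 61.4 CPM with untreated neurons and 19.5, 45.2, 77.3 and 14.5 CPM in microglia alone. The 3 groups overlapped, and the spliced and unspliced forms are not separated in these counts. Hsf1, the master factor of the heat shock response, was scarce, with 7.57, 0, 0 and 11.1 CPM with fibril-loaded neurons, 9.74, 24.2 and 0.237 CPM with untreated neurons and 2.11, 6.94, 2.75 and 0.0836 CPM in microglia alone. At these levels its intervals were wide: the log2 fold change with fibril-loaded neurons against microglia alone was 0.66 with a 95% interval from -3.57 to 4.89.

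**Figure D3:**
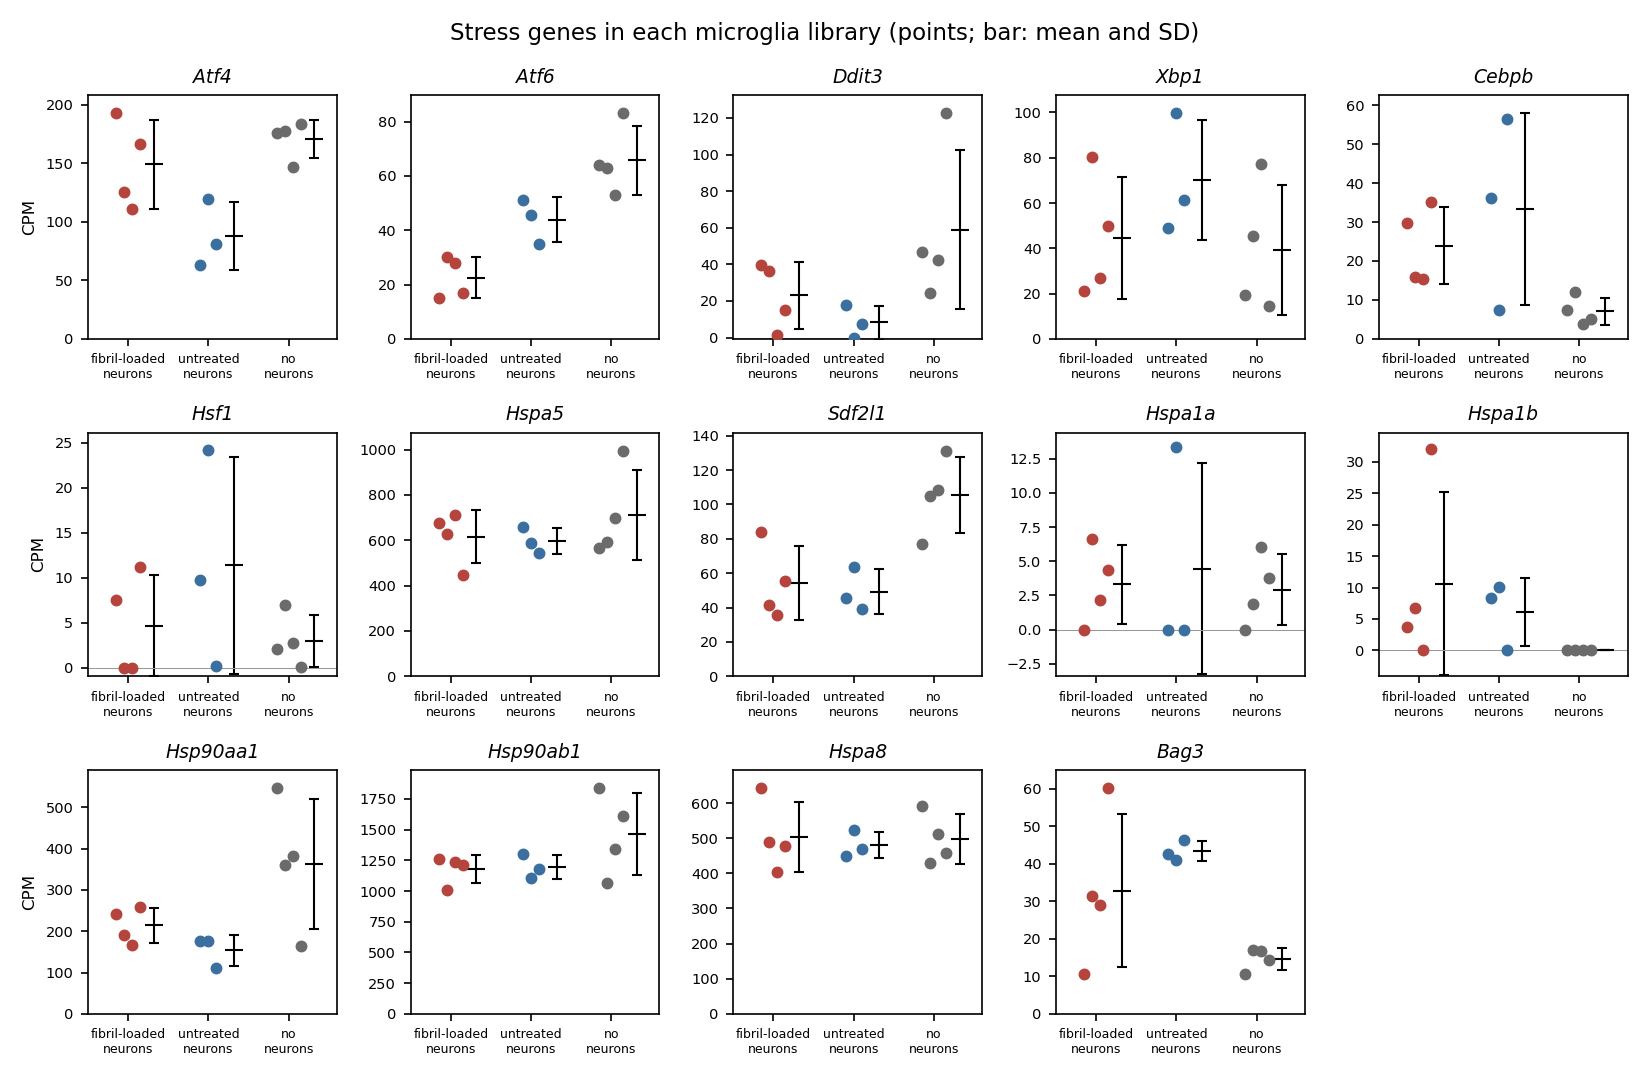
CPM of the genes named by rule, 1 panel per gene with its own linear axis and 1 point per library, with the group mean and SD, for fibril-loaded neurons, untreated neurons and microglia alone from left to right. Atf6 averages 22.5 CPM with fibril-loaded neurons, 44.0 CPM with untreated neurons and 65.8 CPM in microglia alone, Atf4 is lowest with untreated neurons at 87.6 CPM, and Hspa5, Hspa8 and Hsp90ab1 overlap across the groups.

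None of the 8 targets of the integrated stress response passed the edgeR test in any comparison. Against microglia alone their log2 fold changes were negative for 5 of 8 with fibril-loaded neurons and for 6 of 8 with untreated neurons, and between fibril-loaded and untreated neurons they were positive for 7 of 8. The last count shares the untreated-neuron libraries with the one before it. Over all genes tested, 47.9%, 47.7% and 49.8% of log2 fold changes were positive in these comparisons. Chac1, Sesn2 and Vldlr had no count with untreated neurons, so in comparisons with that group their signs are set by its zeros. The summed level of the 8 targets was 164, 231, 125 and 138 CPM with fibril-loaded neurons, 56.4, 126 and 133 CPM with untreated neurons and 143, 137, 149 and 241 CPM in microglia alone. All untreated-neuron sums lay below microglia alone, and 1 library of microglia alone stood above its group.

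Counts of several of these targets were low and uneven. Chac1, an enzyme that degrades glutathione, had 0, 16.5, 6.66 and 10.6 CPM with fibril-loaded neurons, no count in the 3 untreated-neuron libraries and 0.783, 5.26, 0 and 17.7 CPM in microglia alone. Set against 3 counts in each library, a floor that allows for counting error only, its mean was at least 40.3-fold higher with fibril-loaded than with untreated neurons, and at least 28.4-fold lower with untreated neurons than in microglia alone. Both bounds rest on few libraries: the first was 27.5-fold without fibril-loaded library 2, and the second was 9.61-fold without library 4 of microglia alone. DESeq2 gave adjusted p of 0.00777 and 0.00868 for these differences, while edgeR's BH-adjusted p was 1.00 and 0.330. Sesn2, a stress-induced inhibitor of growth signalling, also had no count in the untreated-neuron libraries, with 0, 0, 0.0938 and 6.64 CPM with fibril-loaded neurons and 0, 2.18, 7.35 and 21.7 CPM in microglia alone. Its mean was at least 37.2-fold lower with untreated neurons than in microglia alone, and at least 15.2-fold lower without library 4 of microglia alone. DESeq2 gave an adjusted p of 0.0383 and edgeR a BH-adjusted p of 0.407.

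Psat1 and Phgdh, enzymes of serine synthesis, averaged 68.5 ± 55.1 and 17.1 ± 12.3 CPM with fibril-loaded neurons (SD, n = 4), 31.4 ± 33.1 and 13.6 ± 9.01 CPM with untreated neurons (n = 3) and 70.5 ± 9.63 and 33.9 ± 24.8 CPM in microglia alone (n = 4). Both overlapped between groups. In the last 300 bases of Phgdh 35.1% of 50-base stretches occur in other transcripts, so its level is uncertain. Asns, the asparagine synthetase, averaged 17.3 ± 3.24 CPM, 13.1 ± 21.6 CPM and 12.7 ± 7.32 CPM in the same groups, and Ppp1r15a, the phosphatase subunit that ends the response, 44.7 ± 9.44 CPM, 46.6 ± 29.1 CPM and 25.1 ± 14.01 CPM. An exon of Tulp2 lies over the 3′ end of Ppp1r15a on the other strand, so its level is uncertain too. Trib3, a pseudokinase induced by Atf4 and Ddit3, had at most 1.61 CPM in any untreated-neuron library, against at least 3.87 CPM in each library of microglia alone, while the fibril-loaded libraries ran from 0 to 13.2 CPM. The lipoprotein receptor Vldlr had no count with untreated neurons and at most 4.91 CPM with fibril-loaded neurons and 10.7 CPM in microglia alone.

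Promoter sequences show which of these genes carry the composite site known to bind Atf4 with its partners, the amino acid response element. Windows from 250 bases before to 50 bases after the gene start, taken from RefSeq in GRCm38.p6, were at hand for 34 of the 41 genes as 41 promoters. The motif TGATGNAA was searched on both strands and was found in 5 genes, Trib3, Asns, Chac1, Vldlr and Herpud1, or 12.2% of the member promoters against 3.97% of all 32851 promoters. The examples are read 5′ to 3′ on the gene's strand, with the match in capitals, and are shown for the Atf4 targets Chac1 and Trib3 beside the well-known Asns element. They lie at chr6:7693205-7693252 on the minus strand, chr2:119351029-119351076 on the plus strand and chr2:152344019-152344066 on the minus strand.
Asns: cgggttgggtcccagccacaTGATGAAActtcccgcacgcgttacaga
Chac1: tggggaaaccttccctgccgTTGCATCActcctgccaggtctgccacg
Trib3: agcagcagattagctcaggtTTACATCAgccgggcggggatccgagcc

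In Chac1 and Trib3 the match reads on the other strand. The windows of Atf4 and Ddit3 held no match to these letters, which says only that the letters are not in the window.

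Endoplasmic reticulum chaperones are a main output of Atf6 and Xbp1. None of the 13 genes passed the edgeR test in any comparison, their summed level overlapped between the 3 groups, and the median log2 fold change was -0.02 with fibril-loaded neurons and 0.07 with untreated neurons against microglia alone. Hspa5, the luminal chaperone BiP that holds the sensors inactive, had 674, 630, 711 and 448 CPM with fibril-loaded neurons, 661, 587 and 543 CPM with untreated neurons and 565, 592, 696 and 996 CPM in microglia alone. The groups overlapped, with 1 library of microglia alone above the rest. Its log2 fold change was -0.21 with a 95% interval from -0.74 to 0.32 with fibril-loaded neurons against microglia alone, -0.25 from -0.82 to 0.32 with untreated neurons against microglia alone, and 0.04 from -0.52 to 0.61 between the co-cultures. These unadjusted intervals leave out a 2-fold change in either direction.

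The other abundant chaperones overlapped in the same way. The lectin chaperones Calr and Canx averaged 564 ± 131 and 323 ± 37.8 CPM with fibril-loaded neurons (SD, n = 4), 515 ± 110 and 332 ± 42.8 CPM with untreated neurons (n = 3) and 489.6 ± 8.33 and 362 ± 80.9 CPM in microglia alone (n = 4). Hsp90b1, the luminal Hsp90, averaged 272 ± 35.3 CPM, 269 ± 41.1 CPM and 261 ± 109.9 CPM in these groups, and the disulfide isomerase Pdia3 248 ± 34.1 CPM, 217 ± 56.8 CPM and 276 ± 62.7 CPM. Pdia4, Pdia6 and Dnajc3, an inhibitor of the kinase Perk, also overlapped, with means between 57.6 and 141 CPM in the groups, and the 3′ end of Pdia6 is overlapped by Atp6v1c2 on the other strand, which leaves its level uncertain. Dnajb9, Herpud1, Creld2 and Manf, which stress induces strongly in other settings, stayed between 0 and 50.2 CPM in every library and overlapped between groups.

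Sdf2l1, an endoplasmic reticulum protein that works with Hspa5 and its co-chaperones, was the 1 gene of the 13 with an unadjusted p below 0.05 against microglia alone. It had 84.0, 41.5, 35.5 and 55.5 CPM with fibril-loaded neurons, 45.4, 63.8 and 38.9 CPM with untreated neurons and 77.1, 105, 108 and 131 CPM in microglia alone. Every co-culture library but 1, from fibril-loaded neurons, lay below all libraries of microglia alone. The log2 fold change was -0.96 (SE 0.37, edgeR BH-adjusted p = 0.477) with fibril-loaded neurons and -1.10 (SE 0.41, edgeR BH-adjusted p = 0.332) with untreated neurons against microglia alone. For both co-cultures averaged it was -1.03 (SE 0.32), with an adjusted p of 0.149 in edgeR and 0.0438 in DESeq2. The gene lies on chromosome 16 from 17130138 to 17132383.

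The endoplasmic reticulum stress response element, to which cleaved Atf6 is known to bind, was looked up in the same promoters as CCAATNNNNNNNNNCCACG on both strands. It was found in 7 genes, Hspa5, Hsp90b1, Calr, Canx, Pdia6, Dnajc3 and Creld2, or 17.1% of the member promoters against 0.119% of all promoters, and Hsp90b1 held 2 matches that do not overlap. The shorter form ATTGGNCCACG was found in Herpud1 alone among the set, or 2.44% of the member promoters against 0.0365% of all, and TGACGTGG, known for Xbp1, in none of the member promoters against 0.676% of all. Examples are shown of genes whose levels overlapped between groups, again on the gene's strand with the match in capitals. They lie at chr2:34772005-34772063 (plus strand), chr10:86705618-86705676 (minus), chr11:50325780-50325838 (minus) and chr14:118937807-118937865 (plus). The Hspa5 match begins 65 bases before the gene start.
Hspa5: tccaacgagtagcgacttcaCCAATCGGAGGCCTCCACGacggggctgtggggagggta
Hsp90b1: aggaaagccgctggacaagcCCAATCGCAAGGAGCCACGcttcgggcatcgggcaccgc
Canx: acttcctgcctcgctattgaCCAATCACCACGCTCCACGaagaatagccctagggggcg
Dnajc3: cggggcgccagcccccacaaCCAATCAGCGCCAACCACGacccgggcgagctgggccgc

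The window of Sdf2l1 held no match, and none was at hand for Atf6 itself. A match is a description of the sequence and was not tested as a binding site. A link between the level of Atf6 and that of genes with a match was not tested either, and Atf6 cleavage is not read by these counts. The set was picked as genes of these stress responses. Shares above those of all promoters, for this and the other elements, are therefore not independent results.

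None of the cytosolic heat shock genes passed the test in edgeR, and the inducible Hspa1b had counts in co-culture libraries only. Hsp90aa1, the inducible cytosolic Hsp90, had 242, 190.0, 167 and 258 CPM with fibril-loaded neurons, 175, 176 and 111 CPM with untreated neurons and 547, 361, 383 and 164 CPM in microglia alone. In microglia alone 3 of 4 libraries exceeded every co-culture library, and library 4 lay below most of them. Log2 fold changes were -0.76 (SE 0.32, edgeR BH-adjusted p = 0.561) with fibril-loaded neurons and -1.24 (SE 0.36, edgeR BH-adjusted p = 0.146) with untreated neurons against microglia alone. For both co-cultures averaged the value was -1.0001 (SE 0.28, edgeR BH-adjusted p = 0.0980), the smallest adjusted p of the set, and over the alternatives that p ran from 0.0150 to 0.395.

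The call of Hsp90aa1 depended on 1 library, on the filter and on the tool. Without library 4 of microglia alone the log2 fold change was -1.24 for both co-cultures averaged (edgeR BH-adjusted p = 0.0240) and -1.48 with untreated neurons (edgeR BH-adjusted p = 0.0429) against microglia alone. On all libraries, edgeR with no filter on low counts gave BH-adjusted p of 0.0150 and 0.0270 for the same differences, and DESeq2 0.0218 and 0.0193. In microglia alone library 4 had the lowest share of Rn45s of its group and the highest Ddit3 and Hspa5. The gene lies on chromosome 12 from 110691036 to 110696395.

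Hsp90ab1, the constitutive Hsp90, had 1264, 1009, 1236 and 1213 CPM with fibril-loaded neurons, 1303, 1106 and 1180.0 CPM with untreated neurons and 1838, 1066, 1344 and 1614 CPM in microglia alone. The groups overlapped, and the log2 fold change was -0.31 (95% interval from -0.80 to 0.17) with fibril-loaded neurons, -0.29 (from -0.82 to 0.24) with untreated neurons against microglia alone, and -0.02 (from -0.54 to 0.51) between the co-cultures. Hspa8, the constitutive cytosolic Hsp70 and a disaggregase component for α-synuclein fibrils in vitro, had 643, 489, 403 and 479 CPM with fibril-loaded neurons, 450.0, 522 and 468 CPM with untreated neurons and 592, 429, 511 and 458 CPM in microglia alone. The ranges overlapped almost fully. Its log2 fold change between fibril-loaded and untreated neurons was 0.07 with a 95% interval from -0.47 to 0.61, so the unadjusted interval leaves out a 2-fold change. In the last 300 bases of its transcript, 67.3% of 50-base stretches also occur in other annotated transcripts, so part of its reads may have been assigned elsewhere and its level is uncertain.

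Hspa1b, the classical heat-inducible Hsp70, had 3.68, 6.77, 0 and 32.1 CPM with fibril-loaded neurons, 8.40, 10.0 and 0 CPM with untreated neurons and no count in the 4 libraries of microglia alone. Counts came from 3 of 4 fibril-loaded libraries and 2 of 3 untreated-neuron libraries. Against the same floor of 3 counts in each library its mean was at least 40.6-fold higher with fibril-loaded neurons and at least 23.4-fold higher with untreated neurons than in microglia alone. Without fibril-loaded library 4 the first bound was 13.3-fold, and without untreated-neuron library 3 or 2 the second was 35.2-fold or 16.0-fold. The edgeR BH-adjusted p was 0.275 with fibril-loaded and 0.251 with untreated neurons against microglia alone, and the DESeq2 adjusted p was 0.00388 and 0.0147. Its neighbour Hspa1a, which encodes almost the same protein, had 0, 6.66, 2.16 and 4.38 CPM with fibril-loaded neurons, 0, 13.4 and 0 CPM with untreated neurons and 0, 1.88, 6.02 and 3.76 CPM in microglia alone. The groups of Hspa1a overlapped, and the last 300 bases of both transcripts held no 50-base stretch shared with another gene.

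Bag3, the co-chaperone that hands clients of Hsp70 to autophagy, had 10.7, 31.3, 29.1 and 60.2 CPM with fibril-loaded neurons, 42.7, 41.1 and 46.3 CPM with untreated neurons and 10.7, 17.1, 16.7 and 14.4 CPM in microglia alone. All untreated-neuron libraries lay above microglia alone, as did 3 of the 4 fibril-loaded libraries. The log2 fold change was 1.16 (SE 0.60, edgeR BH-adjusted p = 0.688) with fibril-loaded neurons and 1.56 (SE 0.64, edgeR BH-adjusted p = 0.404) with untreated neurons against microglia alone. The J-domain co-chaperones Dnaja1 and Dnajb1 averaged 187 ± 47.9 and 53.9 ± 16.3 CPM with fibril-loaded neurons (SD, n = 4), 146 ± 65.9 and 52.0 ± 28.2 CPM with untreated neurons (n = 3) and 119 ± 38.2 and 57.9 ± 17.0 CPM in microglia alone (n = 4), with overlapping ranges. Hsph1, a nucleotide exchange factor for Hsp70, ran from 11.1 to 49.6 CPM over all libraries. The small heat shock proteins were at or near the limit of detection: Hspb8 reached at most 8.06 CPM, Cryab at most 6.37 CPM and Hspb1 4.96 CPM in a single library of microglia alone, too low to be tested.

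The mitochondrial chaperonins Hspd1 and Hspe1, which form a folding chamber in the matrix, did not pass the test. Their summed level ran from 143 to 221 CPM with fibril-loaded neurons, from 240 to 269 CPM with untreated neurons and from 194 to 257 CPM in microglia alone. The sums of the co-cultures thus lay apart, while each gene alone overlapped between them, and the sum was not tested. Hspe1 averaged 105 ± 27.8 CPM with fibril-loaded neurons (SD, n = 4), 138 ± 19.5 CPM with untreated neurons (n = 3) and 88.8 ± 18.7 CPM in microglia alone (n = 4), and its untreated-neuron libraries lay above microglia alone without overlap (by a log2 of 0.64, SE 0.33, with an edgeR BH-adjusted p of 0.507). Hspd1 averaged 90.9 ± 35.0 CPM, 118 ± 6.21 CPM and 138 ± 21.4 CPM in the same groups, with overlapping ranges. In the last 300 bases of Hspe1 43.8% of 50-base stretches occur in other transcripts, so its level is uncertain. The genes overlap at their starts on opposite strands of chromosome 1, and a promoter window of each holds a heat shock element, the known site of Hsf1, searched as TTCNNGAANNTTC or GAANNTTCNNGAA on both strands. It was found in 4 promoters of 3 genes, Hsph1, Hspd1 and Hspe1, or 9.76% of the member promoters against 0.603% of all. The window at chr1:55088039-55088091 is shown on the plus strand, the strand of Hspe1, because the same site lies in a promoter window of each chaperonin gene, with the first match in capitals. A second match overlaps it.
Hspe1: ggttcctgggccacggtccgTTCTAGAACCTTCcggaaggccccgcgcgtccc

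No match lay in the windows of Hspa1a, Hspa1b, Dnajb1, Dnaja1, Hspb1, Hspb8 and Bag3, which says only that these exact letters are not in the windows. No window was at hand for Hsp90aa1, Hsp90ab1, Hspa8 and Cryab.

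**Figure D4:**
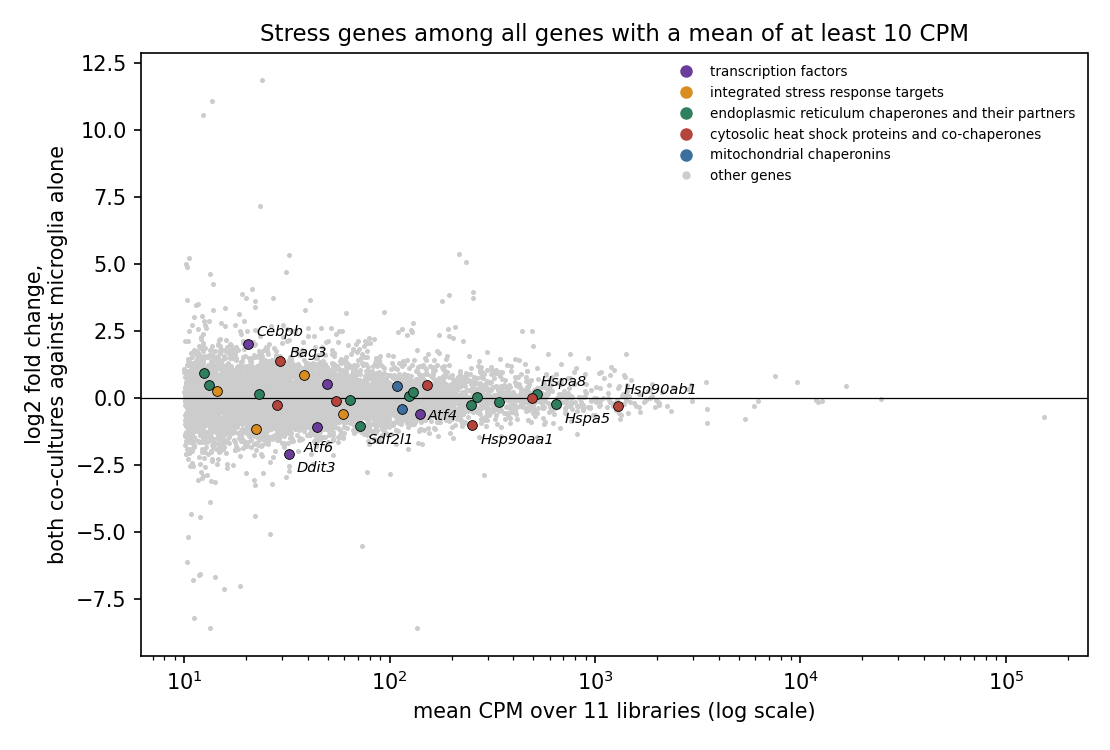
Log2 fold change of both co-cultures averaged over microglia alone, on the vertical axis, against mean CPM on a log axis, 1 point per gene of the set that averaged 10 CPM or more, coloured by role over the other genes in grey. Abundant chaperones such as Hspa5, Hspa8 and Hsp90ab1 lie near no change, the farthest at -0.30, and Cebpb and Ddit3 lie farthest from it at 2.00 and -2.08.

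How small a difference could be seen followed the level of the gene. The 18 genes of at least 50 CPM had a median coefficient of variation between libraries of a group of 22.1%, the 12 genes from 10 to 50 CPM 56.2%, and the 6 genes below 10 CPM for which it could be computed 122%. For the 18 abundant genes the median half-width of the unadjusted 95% interval on the log2 scale was 0.64 with fibril-loaded neurons against microglia alone, 0.69 with untreated neurons against microglia alone and 0.69 between the co-cultures. Over all 40 tested genes it was 1.19, 1.27 and 1.27. A missed threshold does not show that levels were alike.

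Genes of the same pathways outside the set were counted from lists of 130 genes, of which 121 were in the table and 114 were tested. With fibril-loaded neurons against microglia alone 5 were higher and 1 lower at an unadjusted p below 0.05 (5.26%, beside 8.14% of all genes), with untreated neurons against microglia alone 6 and 7 (11.4%, beside 10.3%), and between the co-cultures 2 and 0 (1.75%, beside 3.95%). In these comparisons edgeR called none of the 114. DESeq2 called 3 higher in the first, Aldh18a1, Dnaja3 and Slc3a2 (beside 2.43% of all genes), 3 lower in the second, Gdf15, Sars and Slc7a3 (beside 4.26%), and 1 higher in the third, Slc7a3 (beside 1.68%). Limma-voom called Slc3a2 alone, in the first (beside 0.541%). With both co-cultures averaged against microglia alone edgeR called Sars lower and none higher (1.03% of all genes called). DESeq2 called 3 higher and 3 lower there, the genes it called in the separate comparisons against microglia alone (beside 4.94%). In the same comparison limma on the normalized table called Dnaja3 and Slc3a2 higher and Sars lower (beside 1.45%), and limma-voom Slc3a2 higher and Sars lower (beside 1.43%). Sars, the cytosolic seryl-tRNA synthetase and an Atf4 target, had 85.1, 65.0, 20.6 and 57.5 CPM with fibril-loaded neurons, 41.5, 23.4 and 37.0 CPM with untreated neurons and 123, 122, 70.2 and 215 CPM in microglia alone. All untreated-neuron libraries lay below microglia alone, and 1 fibril-loaded library overlapped it. The log2 fold change of both co-cultures averaged was -1.59 (SE 0.37, edgeR BH-adjusted p = 0.0356). The call was lost on leaving out library 1, 2 or 4 of microglia alone (edgeR BH-adjusted p = 0.0918, 0.0854 and 0.206), library 2 or 3 of untreated neurons (0.0750 and 0.0623) or library 2 or 4 of fibril-loaded neurons (0.0592 and 0.0621).

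Dnaja3, a mitochondrial J-domain co-chaperone, did not pass in edgeR but lay apart from microglia alone in both co-cultures, which overlapped each other. It had 67.8, 62.2, 46.3 and 113 CPM with fibril-loaded neurons, 38.7, 71.8 and 50.1 CPM with untreated neurons and 14.3, 9.62, 32.9 and 9.36 CPM in microglia alone. Every co-culture library exceeded every library of microglia alone, and the log2 fold change of both co-cultures averaged was 1.91 (SE 0.47, edgeR BH-adjusted p = 0.0530). Slc3a2, the shared heavy chain of amino acid transporters and an Atf4 target, averaged 609 ± 72.0 CPM with fibril-loaded neurons (SD, n = 4), 525 ± 203 CPM with untreated neurons (n = 3) and 284 ± 60.2 CPM in microglia alone (n = 4). Its log2 fold change with fibril-loaded neurons against microglia alone was 1.10 (SE 0.28, edgeR BH-adjusted p = 0.117), with ranges apart. Between the co-cultures the smallest p was that of Kdelr2, the receptor that returns escaped chaperones to the endoplasmic reticulum, at 39.0 ± 14.7 CPM with fibril-loaded neurons (n = 4) and 14.2 ± 7.51 CPM with untreated neurons (n = 3), with ranges apart and an edgeR BH-adjusted p of 1.00. Bag2, an exchange factor for Hsp70, followed it with at most 6.42 CPM with fibril-loaded neurons and no count with untreated neurons, and did not pass.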

How the data were processed

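The table the authors deposited holds raw counts by gene symbol from a 3′ mRNA kit (QuantSeq FWD, per the labels' protocols). Per the submitters' processing notes, mm10, STAR, Partek and DESeq2 were used, with no version given; strand use in counting is not given in the sources used here. They also deposited a normalized table, treated as a score: at least 99.8% of its values in each library lay within 0.51 of the count over a size factor common to that library. It entered only an alternative, as log2 of the value plus 1.

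The counts were fitted by edgeR 4.0.16 in R 4.3.3 (TMM scaling, filterByExpr, quasi-likelihood test, two-sided), with a term for group and all 11 libraries in 1 fit, and BH adjustment over 11276 genes at a threshold of 0.05. The SE is the log2 fold change over the root of F, and CPM are counts over TMM-adjusted library size. The common biological coefficient of variation was 1.15. Groups came from the labels' treatment group, and libraries were numbered in order of deposition. Members and gene lists were chosen with earlier results of these data known. Values in every library are given for genes called, for genes of at least 10 CPM in a group with an unadjusted p below 0.05, and always for Atf4, Ddit3, Xbp1, Hspa5, Hsf1, Hspa1a, Hspa1b, Hspa8 and Hsp90ab1; Chac1, Sesn2 and Trib3 were added after their values were seen. Outside the set, genes called, or else the 2 smallest p per comparison, are named. Alternatives used RLE scaling, other filters, DESeq2 1.42.0, limma 3.58.1, a robust fit, a replicate block and fewer libraries. Promoters and positions are from RefSeq (GRCm38.p6), which carries mm10 coordinates. The code was tested on simulated data for large changes in genes of at least 10 CPM, so smaller changes and scarcer genes were not covered.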

Additional observations from a re-analysis of the deposited data

Results flagged for a closer look

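Genes named by rule and summed levels were examined in the groups of 4 libraries, which gave 39 sets of 4 values. In 4 of these sets, 1 library stood far from the other 3 of its group. Chance gives about 1 in 20 for independent sets. These sets are not independent, because the sums contain named genes and the libraries recur. Summed transcription factors were 182.1 CPM in fibril-loaded library 3, against 287.8 to 306.1 CPM in the other fibril-loaded libraries. In library 4 of microglia alone the same sum was 409.1 CPM, against 315.3 to 328.6 CPM. Summed integrated stress response targets were 240.7 CPM in that library, against 137.1 to 148.6 CPM in the others of microglia alone. Summed endoplasmic reticulum chaperones were 2022 CPM in fibril-loaded library 4, against 2562 to 2607 CPM in the other fibril-loaded libraries.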

How the results depend on the processing

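With edgeR on all libraries 0 genes of the set were called in each comparison. DESeq2 called 1 higher and 1 lower with fibril-loaded neurons against microglia alone, 1 higher and 3 lower with untreated neurons against microglia alone, 1 higher between the co-cultures, 2 higher and 3 lower for both co-cultures averaged, and 1 across the 3 groups. With no filter on low counts edgeR called 2 lower, Ddit3 and Hsp90aa1, with untreated neurons and for both co-cultures averaged, and 2 across the 3 groups, beside 1.66%, 2.42% and 1.74% of all genes. Leaving out 1 library gave 0 to 1 lower in those 2 comparisons, the 1 being Hsp90aa1 without library 4 of microglia alone, and 0 to 0 for the other counts. RLE scaling, a mean of at least 5 CPM, limma on the normalized table, limma-voom with quality weights, the robust fit, only the groups compared, and leaving out each group's library with fewest detected genes called 0; the fit of only the groups compared was not run for both co-cultures averaged or across the 3 groups. The causes of these differences were not tested. Of 472 alternative values for 23 pairs of gene and comparison, 448 kept direction and side of the threshold, 15 passed it only under the alternative, 9, all of Sars, no longer passed it, and 0 changed sign. The pairs were genes named by rule, where edgeR on all libraries gave an unadjusted p below 0.05, and the called Sars. The alternatives reuse most of the same libraries, so a kept direction is not independent support. For all but Sars, keeping the side of the threshold meant not passing it. Sars had an edgeR BH-adjusted p of 0.0513 with a mean of at least 5 CPM and of 0.0691 without those libraries of fewest genes. Genes below 10 CPM are limited by depth and by their spread. The labels give no replicate numbers, but the library identifiers in the titles step by 7 between 4 sets, and a replicate block from these sets was added after seeing the data. Across 10 pairs of such libraries from different groups, deviations from the group means correlated by -0.04 to 0.08, and 5 of the 10 pairs were the best match. Those 5 included every pair of a fibril-loaded with an untreated-neuron library, at 0.07, 0.06 and 0.05. These values do not settle whether the identifiers pair the libraries, and the main fit used no pairing. The fit with the replicate block called 0 of the unfolded protein and heat shock genes in each comparison. Over all genes it called 66, against 36 without it, with fibril-loaded neurons against microglia alone, 95 against 72 with untreated neurons, 0 against 0 between the co-cultures and 177 against 116 for both averaged.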
